A study of Mus musculus with 9 samples.

Results

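Cathepsins are the main proteases of endosomes and lysosomes, the acidic compartments in which a dendritic cell takes proteins apart. They are made as inactive precursors, carried to the lysosome by sorting receptors, and activated at low pH. In cells that present antigen they cut engulfed proteins into peptides and trim the invariant chain away from MHC class II molecules. Legumain is a lysosomal protease that cuts after asparagine, and cystatin C is a secreted inhibitor of the papain-like cathepsins and of legumain. Cst3, the gene of cystatin C, is also a well known abundant transcript of conventional dendritic cells.

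The 10 genes described here are Ctss, Ctsl, Ctsb, Ctsz, Ctsh, Ctsc, Ctsk, Ctsd, Lgmn and Cst3, taken by symbol from a table with 45535 named rows. Each had exactly 1 row, and all 10 were among the 18202 named genes that reached a mean normalized count of 10 and were tested. The cells came from the lungs of C57/BL6j mice given bleomycin, a drug that injures the lung and is used to model fibrosis, 7 days before harvest. Lungs were digested with collagenase, and cells carrying CD103, an integrin chain encoded by Itgae that marks most type 1 conventional dendritic cells (cDC1) of the lung, were isolated on magnetic beads. RNA was sequenced from 5 samples taken directly (before culture) and from 4 samples kept for 18 h in RPMI medium with 10% FBS and 1% pen/strep (after culture). All 9 samples therefore share the bleomycin treatment and the digestion, and bead isolation enriches the labelled cells without making them pure. Whether a sample is 1 mouse or a pool is not labelled, so p-values measure the spread between these samples, which may be partly technical.

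Sequencing gave 14.7 to 35.3 M reads in genes with a symbol. A single read amounted to a normalized count between 0.758 and 1.79, and the fewest reads of any of the 10 genes in any sample were 495, for Ctsk. Markers of cDC1 were present in every sample, but 8 of 10 were lower and 2 higher after culture, and their normalized counts summed to between 141263 and 170319 before and between 30056 and 33298 after culture. All 8 markers of mature dendritic cells were higher, with sums of 46113 to 49411 before and 225419 to 252522 after culture. Markers of other cells were present too. Of 13 monocyte and interstitial macrophage markers, 2 were higher and 6 lower (sums of 134315 to 195884 and 156868 to 292844), and of 9 markers of fibrotic lung macrophages and osteoclasts, 6 were higher and 2 lower (25321 to 46256 and 129172 to 246189). Lyz2 alone, with means of 95552 and 193537, gave the largest part of the sums of the 13 markers. None of these 22 macrophage markers was at 0 in a sample. Of 10 alveolar macrophage markers, 2 were higher and 6 lower (28697 to 39544 and 15505 to 19737). All 8 fibroblast markers, all 6 endothelial markers and all 9 alveolar epithelial markers were lower after culture. Their sums were 16643 to 30063 before and 2398 to 4714 after for fibroblasts, 21920 to 31725 and 3189 to 4150 for endothelium, and 25305 to 45619 and 4248 to 8358 for epithelium. Of 6 tested markers of type 2 and monocyte-derived dendritic cells, 4 were lower and 1 higher (20480 to 28953 and 15781 to 28836). The part of these changes in cell content in the levels of the 10 genes was not tested.

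Some libraries stood apart in these genes. Before culture, replicate 4 was the lowest of its group in 8 of the 10 genes. After culture, replicate 3 was the lowest in 9 and replicate 2 the highest in 7. The library names of before-culture replicate 4 and after-culture replicate 3 both carry the number 4. For the 10 genes, results are given with and without these libraries where they change a call.

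Promoter stretches of 4 of the genes are shown first, because they hold short sequence cores that known regulators of lysosomal and myeloid genes bind. A match describes the letters and does not show binding. RefSeq windows of 300 bases (250 before and 50 after an annotated start, GRCm38.p6) were found for 8 of the 10 genes, with 2 windows for Lgmn. The palindrome CACGTG, the E-box core bound by TFEB, TFE3 and MITF, was searched on both strands. It occurred in the windows of Ctsd, Ctsl and Lgmn, and in 7.15% of all 32851 windows. The longer form TCACGTGA, which contains CACGTG and is the core of the element known as CLEAR, occurred in Ctsd among the 8 genes and in 0.974% of all windows. The 4 matches, each with its flanks, read 5′ to 3′ on the strand of the gene, with CACGTG or TCACGTGA in capitals. They lie on the minus strand at chr7:142388048-142388077 and chr7:142387908-142387937 (Ctsd), chr13:64370739-64370768 (Ctsl) and chr12:102439124-102439153 (Lgmn).
Ctsd match 1: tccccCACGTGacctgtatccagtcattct
Ctsd match 2: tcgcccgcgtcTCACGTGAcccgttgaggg
Ctsl match: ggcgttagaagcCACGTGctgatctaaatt
Lgmn match: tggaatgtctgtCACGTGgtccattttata

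The CACGTG cores began 245 and 98 bases before the annotated start of Ctsd, 236 bases before that of Ctsl and 49 bases before the second annotated start of Lgmn. In GENCODE M21, exons (of any gene, on either strand) cover all 30 bases shown of the second Ctsd match and 15 of the 30 shown for Ctsl. Ctss, Ctsz, Ctsk, Ctsc and Cst3 held no CACGTG in their windows, which says only that these letters are not there. The core GAGGAA, bound by ETS factors such as PU.1 in myeloid cells, was found in Ctss, Ctsc, Ctsk and Cst3, but also in 28.3% of all windows. The core GAAANNGAAA of interferon response elements, added after the sequences had been seen, occurred in Ctss alone among the 8 genes and in 3.44% of all windows. In Ctss it began 21 bases before the start. The 180 bases before the start of Ctss (chr3:95526606-95526785, plus strand) are shown with the GAGGAA and GAAANNGAAA matches in capitals.
Ctss upstream: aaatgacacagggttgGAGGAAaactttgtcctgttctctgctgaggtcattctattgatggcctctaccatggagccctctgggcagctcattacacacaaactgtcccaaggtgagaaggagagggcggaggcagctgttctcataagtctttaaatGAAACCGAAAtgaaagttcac

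The first comparison asked how the transcripts of each protease and of its inhibitor differed between fresh and cultured cells. After culture, 6 of the 10 genes were higher (Ctsl, Ctsk, Ctsb, Ctsd, Ctsz and Ctss, by 5.02-fold to 1.74-fold), Cst3 and Ctsc were lower, and Ctsh and Lgmn did not pass the test. These calls use limma on log2(normalized count + 1) with an adjusted p of 0.05 over all tested genes. Culture was accompanied by wide change in this series. Of all tested genes 68.8% were called, 34.2% as higher and 34.6% as lower, so 8 calls among 10 genes is close to the background. The 6 higher genes of 10 stand against 34.2%, and the 2 lower against 34.6%. The median log2 fold change of the 10 genes was 0.82, and that of all tested genes 0.0065. The groups did not overlap for 7 of the 10 genes, against 57.3% of all tested genes. In bulk RNA, a change in how many cells of a type were present and a change in RNA per cell cannot be told apart.

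**Figure D1:**
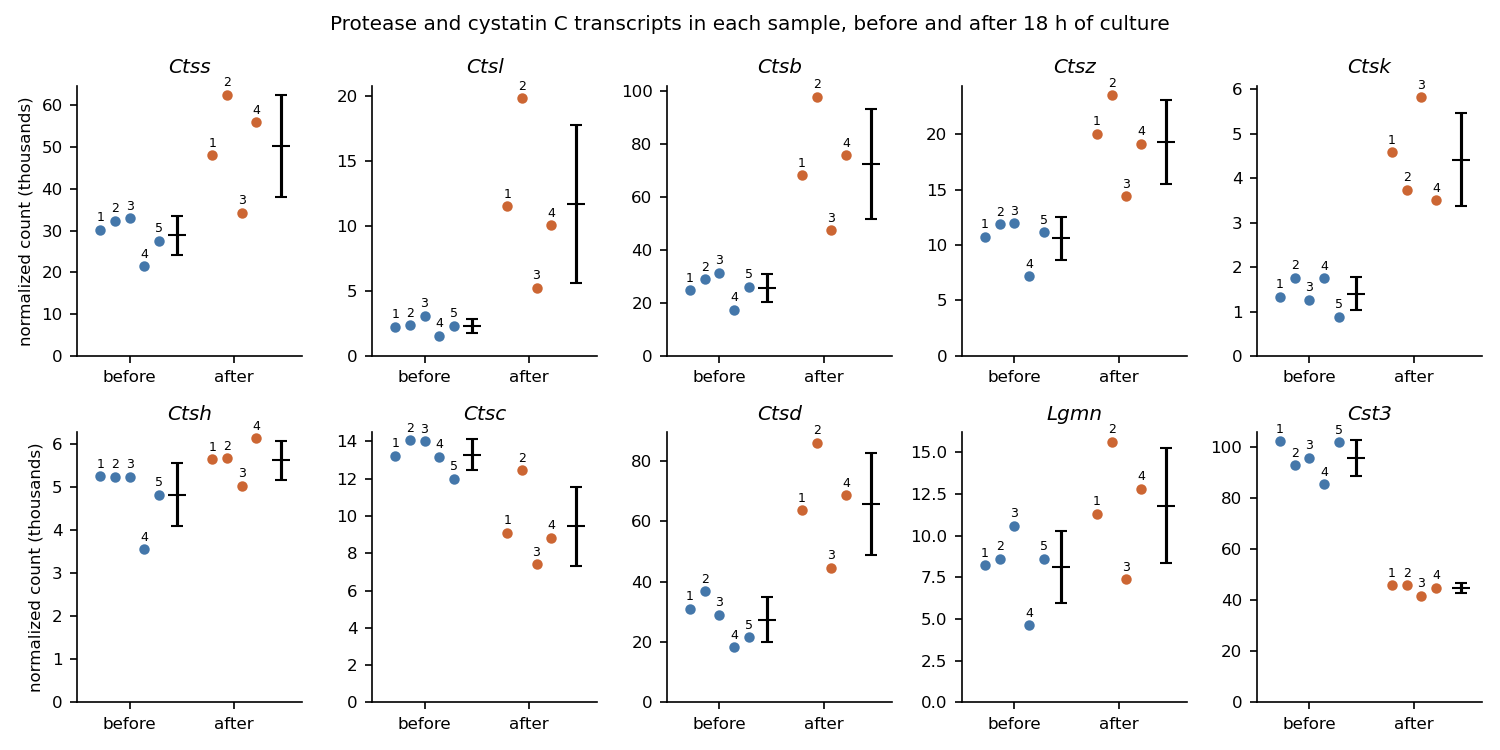
Normalized count divided by 1000 (linear axis from 0) of each of the 10 genes in each sample, with the replicate number above each point and the mean ± SD in black (5 samples before, 4 after culture). Cst3 falls from a range of 85517 to 102292 to one of 41765 to 46025, while replicate 4 before and replicate 3 after culture are low in most proteases.

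Ctss (chr3:95526786-95556403, plus strand) encodes cathepsin S, the endopeptidase that makes the late cuts in the invariant chain in dendritic cells. Its normalized counts were 30236, 32401, 32995, 21466 and 27607 in replicates 1 to 5 before culture. They were 48162, 62598, 34291 and 55986 in replicates 1 to 4 after culture. Every cultured sample exceeded every fresh one, although cultured replicate 3 was only slightly above the highest fresh sample. Mean values were 28941 ± 4684 (SD, n = 5) and 50259 ± 12172 (SD, n = 4), and their ratio was 1.74. The log2 fold change, the fitted difference after minus before of the mean log2 values, was 0.78 (SE 0.169, with an adjusted p of 0.00109 by limma). With the trend on GC content and length removed from each sample it was 0.59 (limma adjusted p = 0.0186). With the title number also fitted as a block it was 0.58 (limma adjusted p = 0.0486).

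Ctsl (chr13:64359337-64370890, minus strand) encodes cathepsin L, an endopeptidase that processes the invariant chain in thymic epithelium and degrades matrix and endocytosed protein in macrophages. Fresh samples held 2249, 2356, 3094, 1569 and 2329. Cultured samples held 11493, 19842, 5247 and 10033. The groups were clearly apart, but the cultured samples themselves spread widely, with replicate 2 far above replicate 3. Ctsl rose from 2320 ± 541 to 11654 ± 6076, a change of 2.21 in log2 (SE 0.289, with an adjusted p of 1.47e-05 by limma), the largest of the 10 genes. In GENCODE M21, 6.9% of the 50-base windows of its longest transcript also occur in another gene. The gene sharing the most of them is Gm49230, a processed pseudogene overlapping Ctsl on the same strand. Gm47123, an antisense gene, overlaps Ctsl on the other strand, and the rows of both were not examined.

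Ctsb (chr14:63122462-63145923, plus strand) encodes cathepsin B, which acts both as an endopeptidase and as a carboxydipeptidase. Its values were 24738, 29015, 31431, 17435 and 26213 before and 68185, 97943, 47569 and 75834 after culture. No cultured sample came near the fresh range. The log2 fold change was 1.47 (SE 0.198, with an adjusted p of 1.90e-05 by limma), from 25766 ± 5322 to 72383 ± 20805.

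Ctsz (chr2:174427493-174439039, minus strand) encodes cathepsin Z, also called cathepsin X, a carboxypeptidase of myeloid cells. Fresh samples held 10768, 11893, 11948, 7215 and 11157, and cultured samples 20051, 23529, 14422 and 19139. Replicate 4 was well below the other fresh samples, and all cultured samples were above the fresh ones. The log2 fold change was 0.87 (SE 0.159, with an adjusted p of 2.91e-04 by limma). With the trend on GC content and length removed from each sample it was 1.33, a correction that moved the median of all genes from 0.0065 to 0.13.

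Ctsh (chr9:90054152-90076089, plus strand) encodes cathepsin H, an aminopeptidase. It held 5257, 5246, 5249, 3556 and 4826 before and 5648, 5684, 5041 and 6144 after culture. The groups overlapped because cultured replicate 3 lay within the fresh range, and the log2 fold change of 0.23 (SE 0.113, with an adjusted p of 0.0817 by limma) did not pass. Without fresh replicate 4 the log2 fold change was 0.13 (adjusted p = 0.136), without cultured replicate 3 it was 0.29 (adjusted p = 0.0476), and without both it was 0.18 (adjusted p = 0.0223). After removal of the GC and length trend it was 0.44 (adjusted p = 0.00310). Ctsh passed in 7 of 24 alternatives in all.

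Ctsc (chr7:88278085-88310888, plus strand) encodes cathepsin C, a dipeptidyl peptidase that activates the granule serine proteases of cytotoxic and myeloid cells. It was the one protease of the set that fell. Its values were 13228, 14069, 14008, 13183 and 11993 before and 9112, 12442, 7413 and 8832 after culture. Cultured replicate 2 lay inside the fresh range and the other cultured samples lay below it. The log2 fold change was −0.52 (SE 0.122, with an adjusted p of 0.00194 by limma), from 13296 ± 840 to 9450 ± 2129, and it was −0.83 after removal of the GC and length trend.

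Ctsk (chr3:95499256-95509362, plus strand) encodes cathepsin K, the collagen-degrading protease for which osteoclasts are known. Its gene ends 17.4 kb before Ctss starts, and both lie on the same strand. Fresh samples held 1335, 1766, 1266, 1744 and 886, and cultured samples 4585, 3746, 5831 and 3513. Ctsk rose 3.16-fold, from 1399 ± 367 to 4419 ± 1048 (log2 fold change 1.67, SE 0.193, with an adjusted p of 4.27e-06 by limma). Its samples ran in another order than those of the other proteases. Cultured replicate 3 was the highest of its group in Ctsk and the lowest in every other gene of the set, and before culture the lowest sample was replicate 5, not 4.

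Ctsd (chr7:142375911-142388038, minus strand) encodes cathepsin D, the aspartic protease of the lysosome. It held 31057, 36943, 29046, 18251 and 21727 before and 63746, 86117, 44654 and 68649 after culture. The groups did not overlap, and Ctsd rose 2.40-fold (log2 fold change 1.27, SE 0.210, with an adjusted p of 1.20e-04 by limma). In GENCODE M21, 36.6% of the 50-base windows of its longest transcript also occur in another gene. The gene sharing the most of them is Gm49369, an overlapping gene model on the same strand. The row of Gm49369 held at most 3 reads in any sample, and how the authors counted reads shared by both is not given in the sources used here, so the level of Ctsd is uncertain to that extent.

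Lgmn (chr12:102394084-102439813, minus strand) encodes legumain, which cuts after asparagine and helps activate several cathepsins. Its values were 8219, 8615, 10584, 4637 and 8617 before and 11315, 15625, 7400 and 12813 after culture. Cultured replicate 3 fell within the fresh range and the other cultured samples lay above it. The log2 fold change was 0.53 (SE 0.229, with an adjusted p of 0.0520 by limma), which did not pass. The call turned on the settings, and Lgmn passed in 12 of 24 alternatives. Without cultured replicate 3 the value was 0.74 (adjusted p = 0.00616), and without fresh replicate 3 it was 0.64 (adjusted p = 0.0268). Without fresh replicate 4 it was 0.34 (adjusted p = 0.103), without cultured replicate 2 it was 0.38 (adjusted p = 0.157), and without both libraries numbered 4 it was 0.55 (adjusted p = 5.56e-04). After removal of the GC and length trend it was 0.76 (adjusted p = 0.00907). With both of those libraries out, 8 of the 10 genes were called higher and 2 lower.

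Cst3 (chr2:148871722-148875692, minus strand), the gene of cystatin C, had the lowest coefficient of variation of the 10 after culture. Fresh samples held 102292, 92931, 95788, 85517 and 101840, and cultured samples 46025, 45903, 41765 and 44972. The lowest fresh sample was far above the highest cultured one. Cst3 fell from 95674 ± 6938 to 44666 ± 1990, which is 2.14-fold lower (log2 fold change −1.10, SE 0.0948, with an adjusted p of 2.56e-07 by limma). After removal of the GC and length trend the log2 fold change was −0.65 (adjusted p = 1.33e-05).

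**Figure D2:**
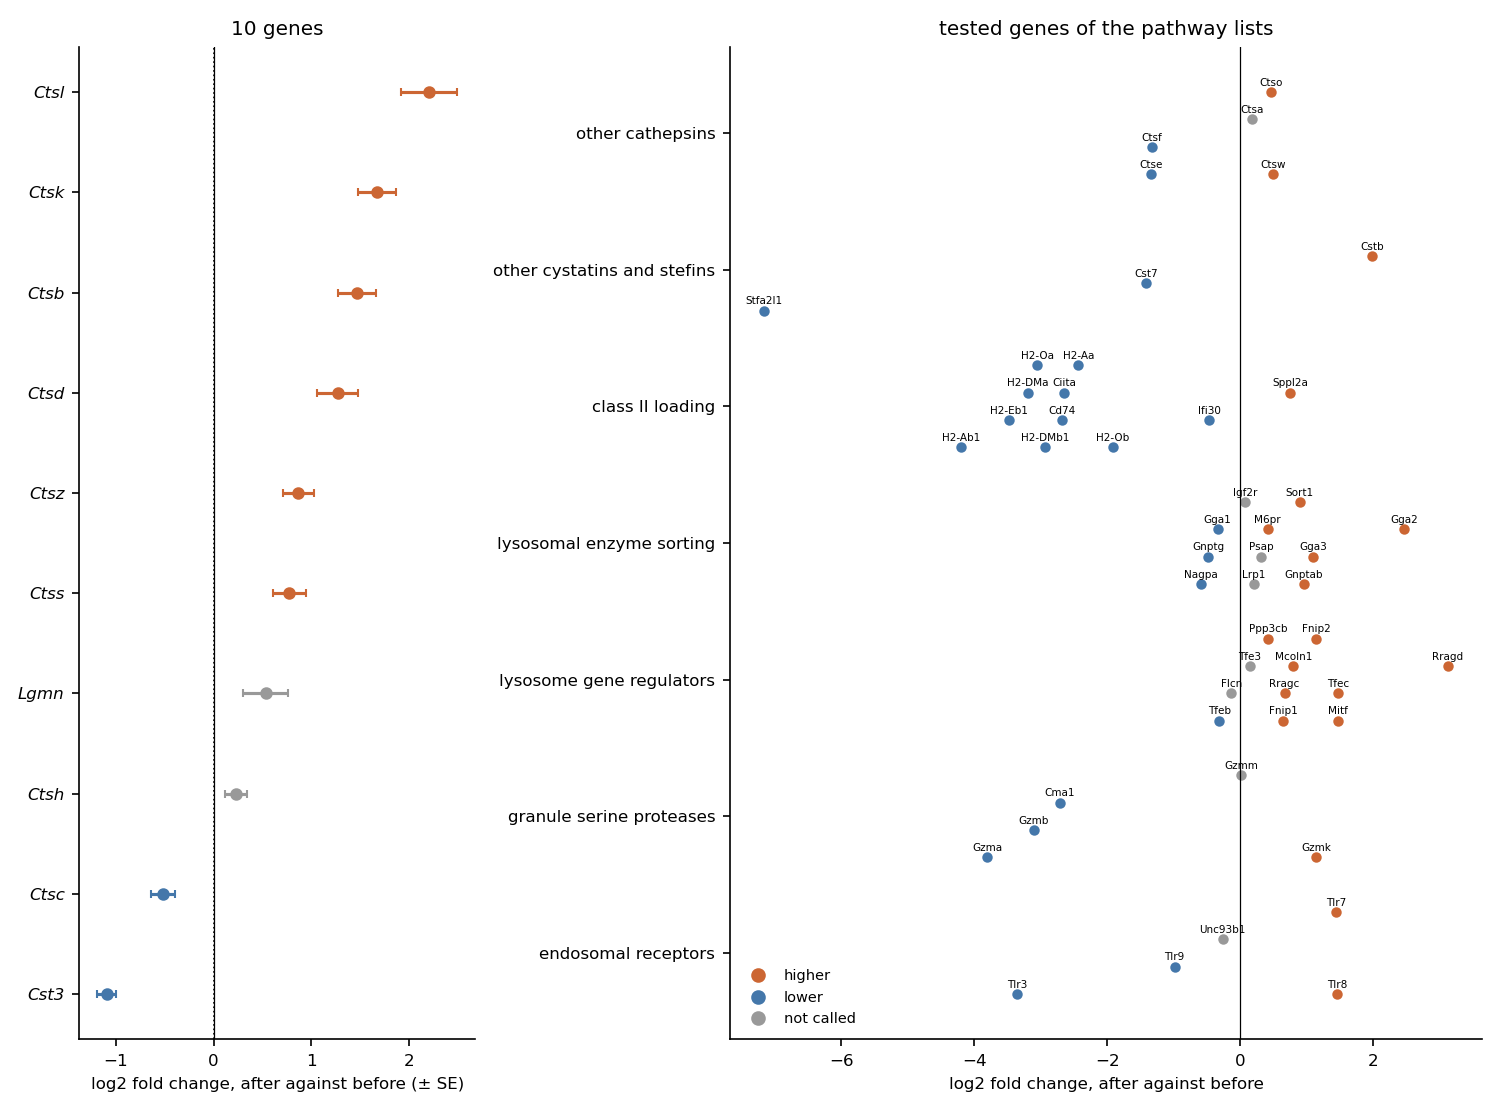
Log2 fold change after against before culture for the 10 genes (left, ± SE, the dotted line is the median of all tested genes) and for every tested gene of 7 lists of related genes (right), coloured by call at a limma adjusted p of 0.05. Ctsl is highest at 2.21 and Cst3 lowest at −1.10 among the 10 genes. The point of Stfa2l1 is a fitted value with no read in any cultured sample and is not a measured fold.

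Samples of a group spread more widely for most of the proteases than for Cst3. The coefficient of variation (SD over mean) of Cst3 was 7.25% before and 4.46% after culture. Over the 5113 tested genes with a mean of at least 1000, the median was 7.55% before and 9.18% after culture. Ctsl varied by 23.3% and 52.1%, Ctsb by 20.7% and 28.7%, Lgmn by 26.6% and 29.1%, Ctsd by 27.2% and 25.9%, and Ctss by 16.2% and 24.2%. Ctsc was even before culture at 6.31% and uneven after it at 22.5%, and Ctsh was the reverse, at 15.2% and 8.04%.

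The deviation of each sample was followed over all 9 proteases. Their mean log2 deviation from the group mean was 0.05, 0.20, 0.20, −0.38 and −0.09 in fresh replicates 1 to 5. In cultured replicates 1 to 4 it was 0.02, 0.35, −0.41 and 0.03. The 13 monocyte and interstitial macrophage markers gave 0.04, 0.24, 0.30, −0.56 and −0.02 before culture and 0.02, 0.59, −0.65 and 0.04 after it. Both means were lowest in fresh replicate 4 and cultured replicate 3 and highest in fresh replicates 2 and 3 and cultured replicate 2. Single proteases departed from this, since Ctsk was highest in cultured replicate 3 and Ctsk and Ctsc were lowest in fresh replicate 5.

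The 9 markers of fibrotic macrophages and osteoclasts also went lowest in fresh replicate 4 (−0.41) and cultured replicate 3 (−0.58), and highest in cultured replicate 2 (0.48). The 6 markers of type 2 and monocyte-derived dendritic cells stood at −0.26, −0.40 and 0.51 in those samples. The 10 alveolar macrophage markers did not follow, at 0.09, 0.37 and 0.02. Their mean was lowest in fresh replicate 5 (−0.35) and cultured replicate 4 (−0.43). The mean deviation of the 10 cDC1 markers stayed within −0.12 to 0.10 in all 9 samples, but single markers moved more and in opposite directions. In fresh replicate 4, Xcr1 was the highest of its group (7128) and Batf3 the lowest (347). The mean of the 9 alveolar epithelial markers moved the other way, at 0.74 in fresh replicate 4 and 0.79 in cultured replicate 3. Of these markers 7 were highest in that fresh sample and 6 in that cultured sample. Cdh1 and Napsa were instead lowest in fresh replicate 4, and Napsa was also lowest in cultured replicate 3. The mean of the NK and T cell markers was raised in the same libraries, at 0.45 and 0.38. The part of these cells in the protease levels was not tested. With fresh replicate 4 and cultured replicate 3 both left out, the log2 fold changes of the 6 higher genes were 0.85 (Ctss), 0.87 (Ctsz), 1.31 (Ctsd), 1.52 (Ctsb), 1.62 (Ctsk) and 2.41 (Ctsl). Among the marker genes with the highest means, Lyz2 (lysozyme) went from 95552 ± 16767 to 193537 ± 45834 and Cd14, the endotoxin co-receptor, from 15958 ± 3711 to 1370 ± 673. Csf1r, the receptor for macrophage growth factor, stood at 11801 ± 2414 and 14883 ± 3908 and Spp1 (osteopontin) at 14874 ± 5433 and 15371 ± 5228, and neither was called. Gpnmb went from 5549 ± 1525 to 84433 ± 24834 and Mmp12, an elastase of macrophages, from 2412 ± 397 to 62246 ± 15411.

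**Figure D3:**
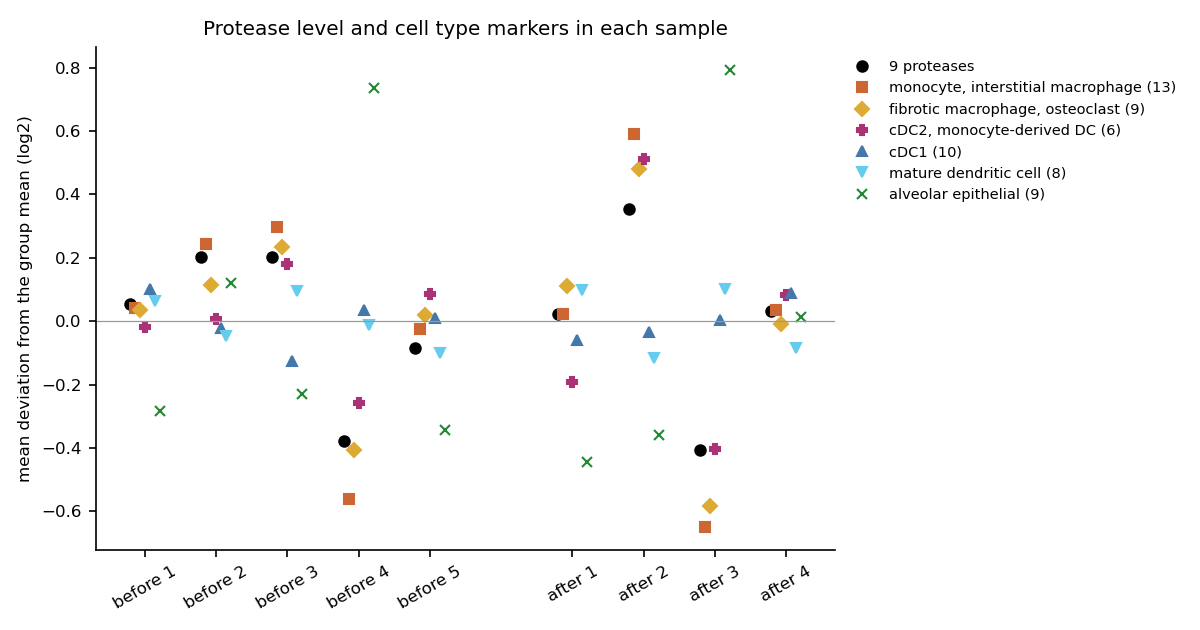
Mean deviation from the group mean (log2) in each of the 9 samples, for the 9 proteases and for marker lists of 6 cell types (number of tested genes in brackets). The proteases sit at −0.38 in fresh replicate 4 and −0.41 in cultured replicate 3, where both macrophage lists shown are also low. Alveolar epithelial markers sit at 0.74 and 0.79 there and cDC1 markers near 0. Markers of alveolar macrophages, not shown, sit at 0.09 and 0.37 in the same samples.

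The second comparison set the 10 transcripts beside each other, which requires dividing by length. Per kilobase of exon union (all annotated exons of the gene), Cst3 led before culture with a normalized count of 75572 ± 5480, followed by Ctss with 21311 ± 3449 and Ctsd with 11657 ± 3176. Ctsz (7353), Ctsb (4258), Lgmn (3502), Ctsc (2289), Ctsh (1073), Ctsk (925) and Ctsl (357) followed. From Ctsd down to Ctsc each gene's range overlapped that of the next, as did those of Ctsh and Ctsk. The genes were measured in the same libraries, and within every fresh sample Ctsd stood above Ctsz, Ctsz above Ctsb and Ctsb above Lgmn. Lgmn was above Ctsc except in replicate 4 (1996 against 2270), and the order of Ctsh and Ctsk differed between samples. Cst3, Ctss and Ctsl had ranges of their own.

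After culture the upper end of the order closed up. Per kilobase of exon union, Ctss stood at 37010 ± 8963, Cst3 at 35281 ± 1572 and Ctsd at 27984 ± 7253, and the ranges of Ctss and Cst3 and of Cst3 and Ctsd overlapped. Ctsz (13383) and Ctsb (11962) came next with overlapping ranges, although Ctsz was above Ctsb in every cultured sample. Lgmn (5075), Ctsk (2923), Ctsl (1796), Ctsc (1627) and Ctsh (1251) made up the lower end, where each gene overlapped its neighbour. Ctsc moved from place 7 to place 9 and Ctsl from place 10 to place 8.

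This order depends on the length used. Per kilobase of the principal coding transcript, Cst3 stayed above Ctss after culture, at 51938 ± 2314 against 37092 ± 8983, with no overlap. On that scale the mean of Ctsb stood above that of Ctsz after culture, at 15261 ± 4386 against 13383 ± 2605, with overlapping ranges. Ctsl, whose exon union of 6489 bases is much longer than its principal transcript of 1971 bases, then went from 1177 ± 274 to 5913 ± 3083 and stood at place 7 after culture.

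**Figure D4:**
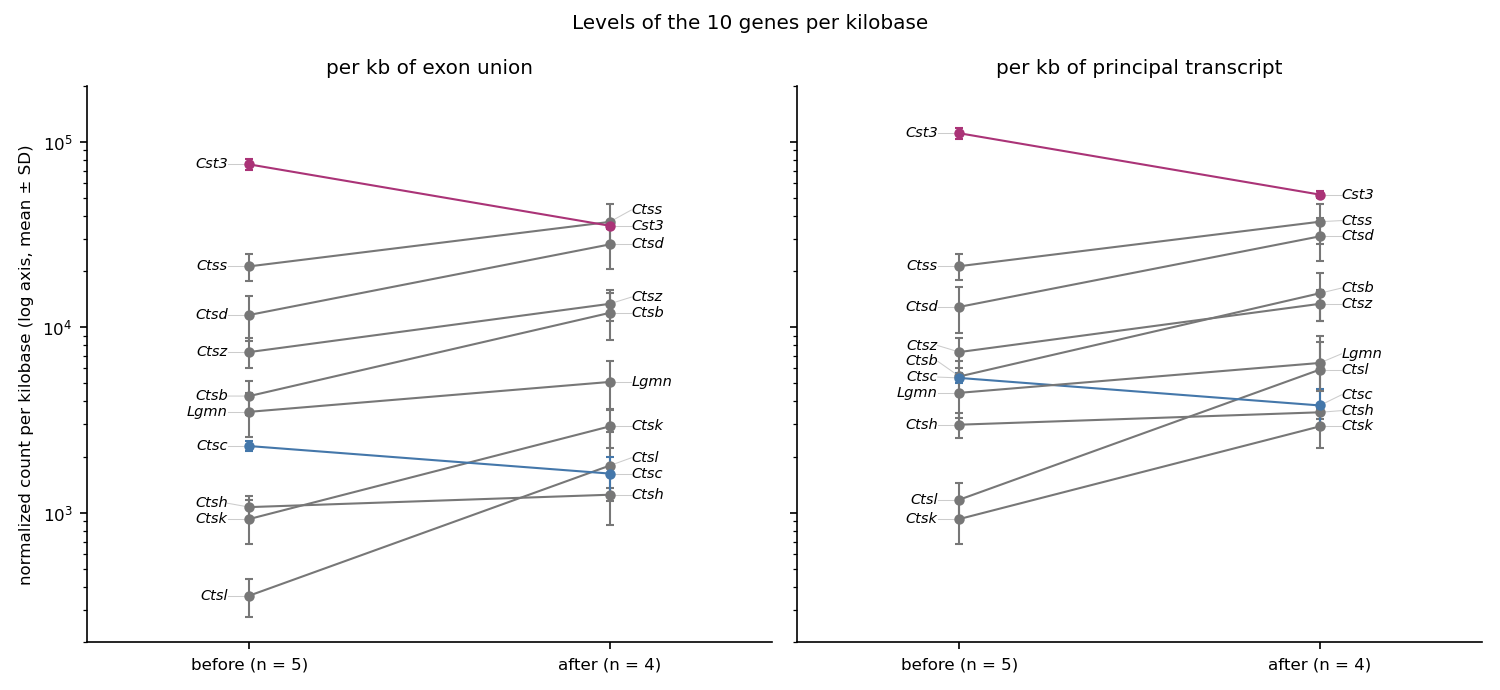
Normalized count per kilobase (log axis, mean ± SD, 5 samples before and 4 after culture) of the 10 genes, divided by the exon union (left) or by the principal transcript (right). Cst3 (purple) and Ctsc (blue) go down and the other lines go up. Cst3 meets Ctss after culture in the left panel and stays above it in the right one.

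As a share of the summed level of the 10 genes per kilobase of exon union, Cst3 made up 59.2 ± 4.01% before culture and 26.1 ± 4.04% after it. Ctss went from 16.5 ± 1.28% to 26.5 ± 2.03%, Ctsd from 8.99 ± 1.86% to 20.02 ± 1.60%, Ctsz from 5.69 ± 0.587% to 9.67 ± 0.410% and Ctsb from 3.29 ± 0.438% to 8.52 ± 0.927%. On this scale cystatin C thus went from more than all 9 proteases summed to about the level of cathepsin S alone. A share of one gene moves when any other gene of the sum moves.

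The ratio of the summed cysteine cathepsins (Ctss, Ctsl, Ctsb, Ctsz, Ctsc, Ctsh and Ctsk, per kilobase of exon union) to Cst3 was 0.477, 0.573, 0.564, 0.417 and 0.454 in fresh replicates 1 to 5. It was 1.88, 2.41, 1.52 and 2.08 in cultured replicates 1 to 4. On this scale every fresh sample held less summed cathepsin than cystatin C transcript and every cultured sample held more. The means were 0.497 ± 0.0688 (SD, n = 5) and 1.97 ± 0.374 (SD, n = 4). Per kilobase of principal transcript they were 0.400 and 1.57, and without division by length 0.910 and 3.85, so the size of the ratio depends on the length used. Being RNA ratios, these values say nothing of how much protein or activity was present.

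**Figure D5:**
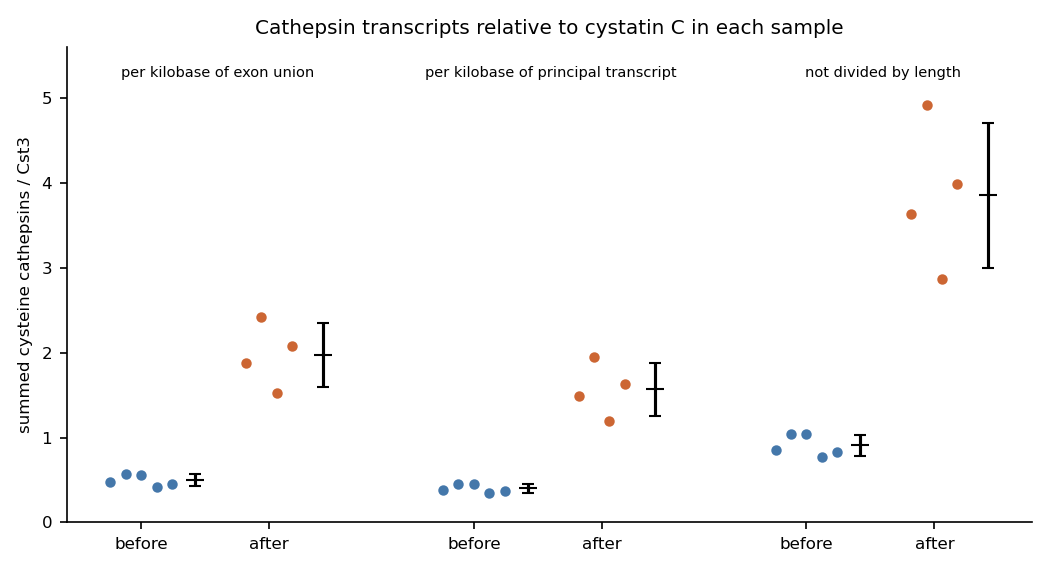
Ratio of 7 summed cysteine cathepsin transcripts to Cst3 in each sample (linear axis from 0, mean ± SD in black), with 3 ways of treating length. Per kilobase of exon union the fresh samples lie between 0.417 and 0.573 and the cultured samples between 1.52 and 2.41, and the groups do not overlap on any of the 3 scales.

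The other genes of both families were then examined. Counts in these and the later lists stand against 34.2% of all tested genes called higher and 34.6% called lower. Of 14 other cathepsins, 5 were tested, 2 of them higher and 2 lower after culture (median log2 fold change 0.18). Ctso, a little studied cysteine cathepsin, rose from 585 ± 49.9 to 807 ± 52.8 (log2 fold change 0.47, adjusted p = 3.40e-04), but its log2 fold change was 0.18 (adjusted p = 0.0986) after removal of the GC and length trend. Ctsw, a cathepsin of cytotoxic lymphocytes, rose from 638 ± 120 to 910 ± 226 (adjusted p = 0.0154). That call was lost without cultured replicate 1 (adjusted p = 0.0533) or replicate 3 (adjusted p = 0.0522). Ctse, an endosomal aspartic protease, fell from 573 ± 98.2 to 223 ± 31.5, and Ctsf from 91.5 ± 20.1 to 36.6 ± 13.2. Ctsa, the protective protein of lysosomal sialidase and galactosidase, stood at 9650 ± 1666 and 10971 ± 2332 (log2 fold change 0.18, adjusted p = 0.327). It was called higher without both libraries numbered 4 (0.20, adjusted p = 0.0467), which made 3 of the 5 higher, and after removal of the GC and length trend (0.64, adjusted p = 8.62e-04). Its promoter window holds TCACGTGA, as does that of Ctsd. Among the related genes taken up below, so do those of Mcoln1 (called higher), Ifi30 and Gnptg (called lower) and Igf2r (not called). The window of Ctsf, which fell, holds CACGTG. The 9 untested cathepsins were at or under 3 reads in every sample, 7 of them with no read at all.

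Among the other inhibitors, Cstb moved opposite to Cst3. Cstb encodes stefin B, a cystatin that stays inside the cell and inhibits the cysteine cathepsins. It held 1266 ± 200.7 before and 5012 ± 783 after culture (log2 fold change 1.99, SE 0.129, with an adjusted p of 1.45e-08 by limma), and its groups, 976 to 1534 and 3979 to 5837, did not overlap. Cst7, which encodes cystatin F, an inhibitor that acts on cathepsin C, fell from 145 ± 35.3 to 53.5 ± 12.98 (log2 fold change −1.42, adjusted p = 3.25e-05).

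Stfa2l1, one of a cluster of stefin A genes known from neutrophils, held 158 ± 81.6 before culture and no read in any cultured sample, at least 57.9-fold lower against a floor of 3 reads per library. Stefin A genes are near copies of each other, so reads may be split between them. Of the neutrophil markers, Csf3r went from 5352 ± 1265 to 965 ± 245. Trem1 went from 5047 ± 896 to 43.2 ± 12.7 and S100a8 from 2054 ± 742 to 103 ± 28.5. All 8 tested neutrophil markers fell, with sums of 12900 to 22216 before and 825 to 1712 after culture. The part of neutrophils in the fall of Stfa2l1 was not tested. Of the 14 listed inhibitors 3 were tested, with 1 higher and 2 lower, 10 were below the minimum and 1 had no row.

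Genes of class II presentation, which the cathepsins serve, were mostly lower. Of 11 genes of the invariant chain and class II loading, 10 were lower and 1 higher after culture (median log2 fold change −2.68). H2-DMb1, a chain of the peptide-loading molecule H2-DM, fell from 8724 ± 250 to 1144 ± 171 (log2 fold change −2.94, adjusted p = 1.68e-11) and H2-DMa from 10285 ± 479 to 1136 ± 221. Of the class II beta chains, H2-Ab1 fell by 4.21 and H2-Eb1 fell by 3.48 on the log2 scale. Cd74, the invariant chain that cathepsin S cuts, fell from 301520 ± 56973 to 46660 ± 6593. Ifi30, a thiol reductase of the same compartment, fell by 0.47 on the log2 scale (adjusted p = 0.00580), a call lost after removal of the GC and length trend (adjusted p = 0.138). Sppl2a, the membrane protease that clears the last fragment of the invariant chain after the cathepsins have cut it, rose against the list, from 4705 ± 269 to 7892 ± 700 (log2 fold change 0.74, adjusted p = 1.52e-06).

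Of 11 genes that tag or carry enzymes to the lysosome, 5 were higher and 3 lower (median 0.31). These 8 calls are close to the background of 68.8% of all tested genes. Gga2, an adaptor that loads mannose 6-phosphate receptors into vesicles, rose 5.52-fold, from 926 ± 39.4 to 5108 ± 199 (log2 fold change 2.46, SE 0.0651, with an adjusted p of 4.56e-12 by limma). Gga3 rose by a log2 fold change of 1.10, Gnptab, the enzyme that attaches the mannose 6-phosphate tag, by 0.95, and Sort1, the sorting receptor sortilin, by 0.89. Against these, Gnptg fell by 0.48, Nagpa by 0.60 and Gga1 by 0.34 on the log2 scale. With the GC and length trend removed the split was 9 higher and 1 lower. Gga1 turned to 0.48 and was then called higher (limma adjusted p = 8.81e-05), and Nagpa turned to 0.08 (adjusted p = 0.538).

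Of 11 regulators of lysosomal genes, 8 were higher and 1 lower (median 0.66). TFEB, TFE3, MITF and TFEC are the transcription factors that bind CACGTG sites of the kind shown above for Ctsd, Ctsl and Lgmn, and the Rag GTPases and folliculin complexes hold them at the lysosome. Rragd rose 8.79-fold, from 115 ± 5.85 to 1008 ± 116 (log2 fold change 3.12, limma adjusted p = 2.58e-11). Tfec rose from 343 ± 45.5 to 956 ± 184 and Mitf from 1006 ± 264 to 2761 ± 558, with log2 fold changes of 1.47 each. Fnip2, a folliculin partner, rose by 1.14, and Mcoln1, the lysosomal calcium channel, by 0.80 on the log2 scale. Tfeb itself was the gene called lower, by 0.32 on the log2 scale (adjusted p = 0.0341). That call was lost without fresh replicate 1, 2, 3 or 5 or cultured replicate 1 or 3, each left out alone (adjusted p between 0.0520 and 0.101). After removal of the GC and length trend the value was 0.57, and Tfeb was then called higher (limma adjusted p = 4.09e-05). CACGTG was found in the windows of 3 of these 11 genes (Mcoln1, Rragc and Fnip1) and 4 of the 9 sorting genes with a window (Igf2r, Gnptg, Nagpa and Gga2).

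Substrates of cathepsin C and of the endosomal cathepsins were the last lists. Of the granule serine proteases that cathepsin C activates, 5 of 10 were tested, with 1 higher and 3 lower. Gzma fell from 415 ± 176 to 28.5 ± 12.1, Gzmb from 337 ± 68.3 to 44.4 ± 25.1 and Cma1 from 26.2 ± 10.3 to 3.98 ± 2.86. Gzmk rose from 18.0 ± 3.22 to 41.8 ± 14.2. In the same samples 6 of 9 NK and T cell markers, a list that includes Gzma itself, fell and none rose. The 3 not called were Cd3e, Cd3d and Cd8a. Sums of these markers were 5282 to 7130 before and 3792 to 4925 after culture, and the part of those cells in the granzyme values was not tested.

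Of 4 endosomal Toll-like receptors that cathepsins cut, Tlr7 and Tlr8 were higher and Tlr3 and Tlr9 lower. Tlr8 rose from 946 ± 94.8 to 2647 ± 633 and Tlr7 from 724 ± 113 to 1986 ± 430. Tlr3, also a cDC1 marker, fell from 2807 ± 358 to 278 ± 70.7 and Tlr9 from 3183 ± 265 to 1603 ± 118. Unc93b1, which carries these receptors to endosomes, stood at 9102 ± 1117 and 7732 ± 2016 (log2 fold change −0.27, adjusted p = 0.152). Without cultured replicate 2 it was called lower (−0.40, adjusted p = 0.0270), and without cultured replicate 3 it was −0.08 (adjusted p = 0.551). After removal of the GC and length trend it turned to 0.30 (adjusted p = 0.0709).

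For each gene the 2 tested genes with the most similar profile over the 9 samples were found among 18183 others, by the root mean square difference of their log2 profiles, each centred on its own mean. Ctsz lay nearest to Cd68 (0.0657), which encodes a lysosomal membrane protein of macrophages, and to Tcirg1 (0.0901), a subunit of the proton pump. Ctss lay nearest to Mcfd2 (0.0585) and Slc38a7 (0.0744), and Ctsb to Hk3 (0.0827) and Lhfpl2 (0.0961). Ctsd lay nearest to F7 (0.127) and Lamp1 (0.164), a lysosomal membrane protein, and Lgmn to Fcgr3 (0.112), a receptor for antibody, and Cyba (0.129), a subunit of the NADPH oxidase. Cst3 had the closest match of all, Ubald1 (0.0350), then Alyref (0.0530).

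The matches of Ctsl and Ctsk were the loosest. Ctsl lay nearest to Treml6 (0.222) and Ccl9 (0.227), a chemokine, and Ctsk to A930006L05Rik (0.180) and Zfp799 (0.180). Ctsc lay nearest to Urod (0.0516) and Tcn2 (0.0695), and Ctsh to Snf8 (0.0537) and Prr12 (0.0600). None of these 20 nearest genes was another of the 10.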

How the data were processed

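Total RNA of the 9 samples was sequenced by a commercial provider, per the labels. The deposited table gives a normalized count for each gene, treated here as a signal without negative values, which the authors did not divide by length. DESeq2 and the build GRCm38 are named, per the submitters' processing notes; aligner, counting tool, annotation and strandedness are not given in the sources used here. Every deposited value (100%, within 0.001 read) was a whole multiple of what 1 read is worth in its sample, so reads could be recovered. The 3782 rows without a symbol (9.11% of reads before and 4.57% after culture) were left out. Reads carry no molecular identifiers here, so intervals from counting alone would understate the error, and the spread between samples is used. Pairs of samples within a group differed by more than counting noise (chi-square over its degrees of freedom between 7.02 and 66.9 in 16 pairs).

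Genes with a mean of at least 10 were tested with limma 3.58.1 (R 4.3.3, two-sided, group as the only term, mean-variance trend) on log2(value + 1), a scale that understates changes of low genes, with Benjamini-Hochberg adjustment over all 18202. On recovered reads, edgeR 4.0.16 called 12562 genes and DESeq2 1.42.0 called 12663, against 12524 by limma. Scripts were tested on simulated data. Lengths, overlaps and 50-base windows came from GENCODE M21 (GRCm38) and promoters from RefSeq (GRCm38.p6). Tables and plots were made in Python 3.11.15 with pandas 2.3.3, matplotlib 3.10.9 and NumPy 2.4.6.

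The members, gene lists and marker lists were chosen with earlier results of these data known. Named genes are the 10 members, up to 4 called genes per list by adjusted p and called genes against their list, the 3 genes with the highest means of a marker list where a result turns on it, and the 2 nearest profiles per member. Cd74, Mitf, Ifi30, Ctsa, Unc93b1, Stfa1 and overlapping genes were named after their values were seen. Alternatives were other pseudocounts, filters, scalings, tools, sample weights, replicate blocks, removal of a smooth trend on GC content and transcript length within each sample, and leaving out samples.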

Additional observations from a re-analysis of the deposited data

Results flagged for a closer look

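Of 122 groups examined (61 genes before and after culture), 9 held a sample far from the others of its group by Dixon's criterion, and chance alone flags about 1 group in 20. Among the 10 genes these were Ctsz and Ctsh, both in before-culture replicate 4. Ctsz was 7215 there and between 10770 and 11950 in the other fresh samples. Ctsh was 3556 there and between 4826 and 5257 in the others.

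The same library gave 5 of the other flags. It was low in Nagpa (752.5, others 1103 to 1187), Gga1 (2293, others 2935 to 3188) and Lrp1 (28070, others 44840 to 49140). It was high in Gzmb (457.0, others 289.5 to 324.2) and Cma1 (44.36, others 19.69 to 23.51). Elsewhere, Cst7 was 205.3 in before-culture replicate 3 (others 117.2 to 141.9), and Ciita, the master regulator of class II genes, was 1892 in after-culture replicate 4 (others 1391 to 1421).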

How the results depend on the processing

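The 8 called genes of the 10 kept direction and call in all 24 alternatives, of which 1, leaving out both libraries numbered 4, was chosen after seeing the data. Ctsh passed in 7 of the 24 (adjusted p 0.0031 to 0.202) and Lgmn in 12 (7.37e-06 to 0.157). Over all 10 genes, 221 of 240 values kept their call. At these depths counting error is small for all 10 genes, and the spread between samples limits the precision.

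Leaving out 1 sample at a time, the other cathepsins called higher ranged from 1 to 2 and the regulators called lower from 0 to 2. With no filter on low values 4 of the other cystatins were lower, and with a minimum mean of 50 no granule protease was higher (0). Removing the GC and length trend, alone and with the title-number replicate block, gave 9 sorting genes higher and 1 lower, and 0 regulators lower. Those 2 fits reversed Nagpa (0.08153 and 0.08829), Gga1 (0.4769 and 0.499), Tfeb (0.5704 and 0.5742), Flcn (0.338 and 0.3628) and Unc93b1 (0.2977 and 0.3049), and moved the median of all genes to 0.132 and 0.1423. Without 1 sample, Igf2r ranged from −0.06755 (without after-culture replicate 2) to 0.2331 and Gzmm from −0.2349 (without after-culture replicate 3) to 0.1948. Gzmm turned to −0.1413 with sample weights, −0.04034 with the title-number block and without before-culture replicate 5, and −0.2421 without both libraries numbered 4. The share of Cst3 was 44.13% and 15.63% without division by length and 64.45% and 30.97% per principal transcript, and the cathepsin ratio 0.9104 and 3.853, and 0.4004 and 1.568. The cause of these shifts was not tested.

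By neither numbering did every same-numbered pair correlate above 0.1, so the samples were not treated as paired. Same-numbered samples correlated at 0.103, 0.0914, −0.250 and −0.0318 by title, and at 0.0619, 0.266, 0.350 and 0.0521 by library name. By library name, 3 of 4 fresh and 4 of 4 cultured samples correlated best with their own number, a hint from the data and not from the design. A replicate block by library name gave 8 of the 10 genes higher (Lgmn adjusted p = 7.37e-06, Ctsh 0.00846) and 12836 genes called in all, and it also called Unc93b1 (0.0241) and Ctsa (0.0107). A block by title gave 6 higher, 11646 genes in all, and 0 regulators lower.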

Other observations

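Rows of some genes that overlap the 10 genes in GENCODE M21 were read separately. Hmgb1-ps5, a processed pseudogene within Ctss on the same strand, held 73.6 ± 10.1 before and 279 ± 16.7 after culture (limma adjusted p = 3.37e-08), far below Ctss itself. Fdft1, an enzyme of sterol synthesis on the strand opposite Ctsb, went from 729 ± 82.7 to 1512 ± 143 (adjusted p = 4.96e-07). Nelfcd, opposite Ctsz, went from 1049 ± 65.0 to 832 ± 68.5 (adjusted p = 0.00243). Strandedness is not given in the sources used here, so reads of overlapping genes on opposite strands cannot be told apart. Stfa1, another stefin A gene and too low to be tested, held 11.4 ± 7.67 before culture and no read in any cultured sample, at least 4.18-fold lower against a floor of 3 reads per library.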
